A study of Mus musculus with 2 samples.

Results

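Markers of Kupffer cells and other macrophages of the liver were followed in RNA sequencing data from 2 mouse livers, 1 per genotype. The markers were a named list of 40 genes, found by symbol among the 35275 Ensembl gene IDs of the deposited tables, and all 40 were present with reads in both libraries. They comprise 13 markers of resident Kupffer cells, 4 of lipid-associated macrophages, 14 shared by macrophages and other myeloid cells, and 9 of monocytes or of leukocytes in general. Both livers came from C57BL/6 mice aged 10 months. One library carries the label wild type and the other the label LTsc1KO with the genotype TSC1-/-, meaning loss of Tsc1 from the liver. The product of this gene, hamartin, restrains the growth kinase mTORC1, and the series describes this mouse as a model of liver cancer that arises without inflammation. The driver of the deletion, and whether a tumour nodule was sampled, are not stated in the sources used here.

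Kupffer cells are macrophages that settle in the liver before birth and live inside the sinusoids, where they clear microbes, complement-coated particles, dying cells and old erythrocytes. They depend on the receptor CSF1R and its ligands, and when they are lost, circulating monocytes can enter and take their place. Macrophages that take up lipid in injured or fatty liver switch on another set of genes, with the receptor TREM2 and the lysosomal glycoprotein GPNMB among the best known. In a bulk liver library a marker's level depends both on how many cells of the type are present and on how much RNA each holds, and these cannot be told apart here.

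Values are FPKM, read numbers divided by gene length and by library size, so levels of genes can be compared within a library. A ratio between the libraries depends also on how they are scaled to each other. The FPKM of all genes summed to 815384 in the wild-type-labelled library and 720121 in the LTsc1KO-labelled library. Reads recovered from these values totalled 27919645 in the wild-type-labelled library and 29351163 in the LTsc1KO-labelled library. Neither genotype has a second library, so there is no replicate check and no p-value, and any difference may be one between 2 animals. Ratios are FPKM in the LTsc1KO-labelled library over FPKM in the wild-type-labelled library, with 95% exact binomial (Clopper-Pearson) intervals on reads, which cover counting error only. Log2 ratios are of FPKM + 1, which understates differences of low genes, and a gene counted as expressed when its FPKM reached 1 in either library. A gene that reached 1 in only 1 library therefore had its direction fixed by this filter, here and in every list below. Tsc1 had an FPKM of 4.90 and 4.79 in the wild-type- and LTsc1KO-labelled libraries and so does not check the labels. Most genes had higher FPKM in the LTsc1KO-labelled library: 12395 expressed genes had a median log2 ratio of 0.70, and the median FPKM ratio of the 10067 genes that reached 1 in both was 1.64. Every marker is therefore given against equal FPKM and against this median gene. The wild-type-labelled library also held skeletal muscle transcripts, with the muscle actin Acta1 at an FPKM of 875 against 0.119, and muscle creatine kinase Ckm at 148 against 0.0241. Their part in the values below was not tested.

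The upstream sequences of 8 markers are shown first, because they include the 3 markers with the highest log2 ratios (Gpnmb, Cd68 and Cd9), the marker with the lowest (Marco), the Kupffer lectin gene Clec4f, the receptor gene Trem2 and the neighbouring complement genes C1qb and C1qc. Each is taken from the 250 bases before the RefSeq start on GRCm38.p6, 5′ to 3′ on the gene's strand, without bases that GENCODE places inside the gene. Capitals mark matches to the PU box GAGGAA, the core letters bound by the myeloid transcription factor PU.1, on either strand (TTCCTC on the other). No match to the E-box CACGTG, the core of sites bound by the TFEB and TFE3 family, occurs in them. No other letters were searched for this family.
Gpnmb (chr6:49036268-49036517, plus strand): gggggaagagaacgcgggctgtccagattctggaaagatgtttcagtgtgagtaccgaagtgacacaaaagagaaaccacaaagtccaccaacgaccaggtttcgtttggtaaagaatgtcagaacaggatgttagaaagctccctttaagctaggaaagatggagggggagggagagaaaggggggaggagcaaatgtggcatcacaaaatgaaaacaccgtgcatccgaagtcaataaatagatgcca
Cd68 (chr11:69666171-69666420, minus strand): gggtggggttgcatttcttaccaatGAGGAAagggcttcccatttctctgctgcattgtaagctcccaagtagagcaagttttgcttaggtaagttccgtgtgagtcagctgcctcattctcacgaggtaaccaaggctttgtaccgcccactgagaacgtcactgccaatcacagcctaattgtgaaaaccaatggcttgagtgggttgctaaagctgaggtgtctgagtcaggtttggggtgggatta
Cd9 (chr6:125494792-125495010, minus strand): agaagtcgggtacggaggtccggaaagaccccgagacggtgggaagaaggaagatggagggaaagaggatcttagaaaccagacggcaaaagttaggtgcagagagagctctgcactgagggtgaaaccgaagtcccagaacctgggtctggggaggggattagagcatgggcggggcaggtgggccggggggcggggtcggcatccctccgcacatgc
Trem2 (chr17:48346151-48346400, plus strand): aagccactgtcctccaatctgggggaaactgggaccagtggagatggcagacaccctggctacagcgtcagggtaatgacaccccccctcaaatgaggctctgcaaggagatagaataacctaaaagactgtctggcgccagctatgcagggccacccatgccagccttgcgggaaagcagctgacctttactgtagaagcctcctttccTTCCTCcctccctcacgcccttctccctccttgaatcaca
Clec4f (chr6:83656188-83656366, minus strand): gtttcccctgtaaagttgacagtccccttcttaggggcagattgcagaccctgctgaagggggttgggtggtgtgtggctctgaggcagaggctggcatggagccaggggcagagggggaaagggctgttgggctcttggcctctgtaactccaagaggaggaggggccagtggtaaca
Marco (chr1:120505025-120505274, minus strand): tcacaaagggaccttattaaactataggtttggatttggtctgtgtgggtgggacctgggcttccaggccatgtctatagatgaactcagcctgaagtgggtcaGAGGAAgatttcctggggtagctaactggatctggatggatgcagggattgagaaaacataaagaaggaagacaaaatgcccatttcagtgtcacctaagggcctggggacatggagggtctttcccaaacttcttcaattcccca
C1qb (chr4:136886201-136886450, minus strand): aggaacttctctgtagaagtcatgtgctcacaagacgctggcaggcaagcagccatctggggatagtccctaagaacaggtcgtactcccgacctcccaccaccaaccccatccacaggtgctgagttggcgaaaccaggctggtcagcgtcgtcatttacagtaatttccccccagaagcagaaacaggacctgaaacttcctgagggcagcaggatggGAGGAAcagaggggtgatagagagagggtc
C1qc (chr4:136893066-136893164, minus strand): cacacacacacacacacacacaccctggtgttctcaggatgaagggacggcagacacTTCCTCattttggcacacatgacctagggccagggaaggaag
A PU box stood in 5 of these 8 windows. Its first base lay 225 bases before the start in Cd68, 40 in Trem2, 146 in Marco, 30 in C1qb and 193 in C1qc. RefSeq windows were at hand for 31 of the 40 markers, and 17 of the 31 held the letters in at least 1 of their windows. Counted by window, 20 of 36 (55.6%) did, against 23.3% of all 32851 promoter windows of that length. The E-box stood in 0 of 36 windows and in 6.02% of all. A match describes letters only. Windows with the PU box belonged to markers with high ratios, such as Cd68, and to markers with low ratios, such as Marco.

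Across the 40 markers, 28 had a higher FPKM in the LTsc1KO-labelled library and 12 a lower one. The counting interval lay above equal FPKM for 26, below it for 9, and held it for 5. Against the median gene, the interval lay above 1.64 for 17 markers, below it for 13 and held it for 10. No such interval counts over all genes are given here. On the log2 scale 32 of the 40 were expressed. Of these, 23 had a positive log2 ratio and 9 a negative one, beside 9672 and 2723 of the 12395 expressed genes. A higher value was thus common to most genes. Past the 2-fold limit were 7 higher (21.9%) and 2 lower (6.25%), while among all expressed genes 35.6% were at least 2-fold higher and 6.15% at least 2-fold lower. The counts were also 7 and 2 over all 40 markers with no filter. The members' median log2 ratio of 0.66 lay close to the 0.70 of all expressed genes. After median centring, in which the LTsc1KO-labelled library was divided by 1.64 so that the median gene had equal FPKM (a shift of -0.72 on the log2 scale), 4 of 29 markers were at least 2-fold higher and 5 at least 2-fold lower, beside 15.6% and 12.7% of 11851 expressed genes. After centring these were 13.8% and 17.2% of the markers. How the upward share stood to that of all genes depended on the pseudocount and on the limit for expression: it was 43.8% against 42.9% with a pseudocount of 0.1, 18.8% against 18.0% with a pseudocount of 5, and 38.9% against 38.5% at a minimum FPKM of 5, so the gap between 21.9% and 35.6% is not a result about the markers. The downward shares in these settings were 12.5% against 7.83%, 0 against 3.70%, and 5.56% against 6.39%. The 7 higher markers were Slc40a1, C1qb, Gpnmb, Cd9, Lgals3, Cd68 and Tyrobp, and the 2 lower were Marco and Ly6c1. Of the expressed markers, 5 passed the limit through the LTsc1KO-labelled library alone (Folr2, Trem2, Gpnmb, Ccr2 and Ptprc) and 2 through the other library alone (Marco and Ly6c2), so their direction was fixed by the filter.

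**Figure D1:**
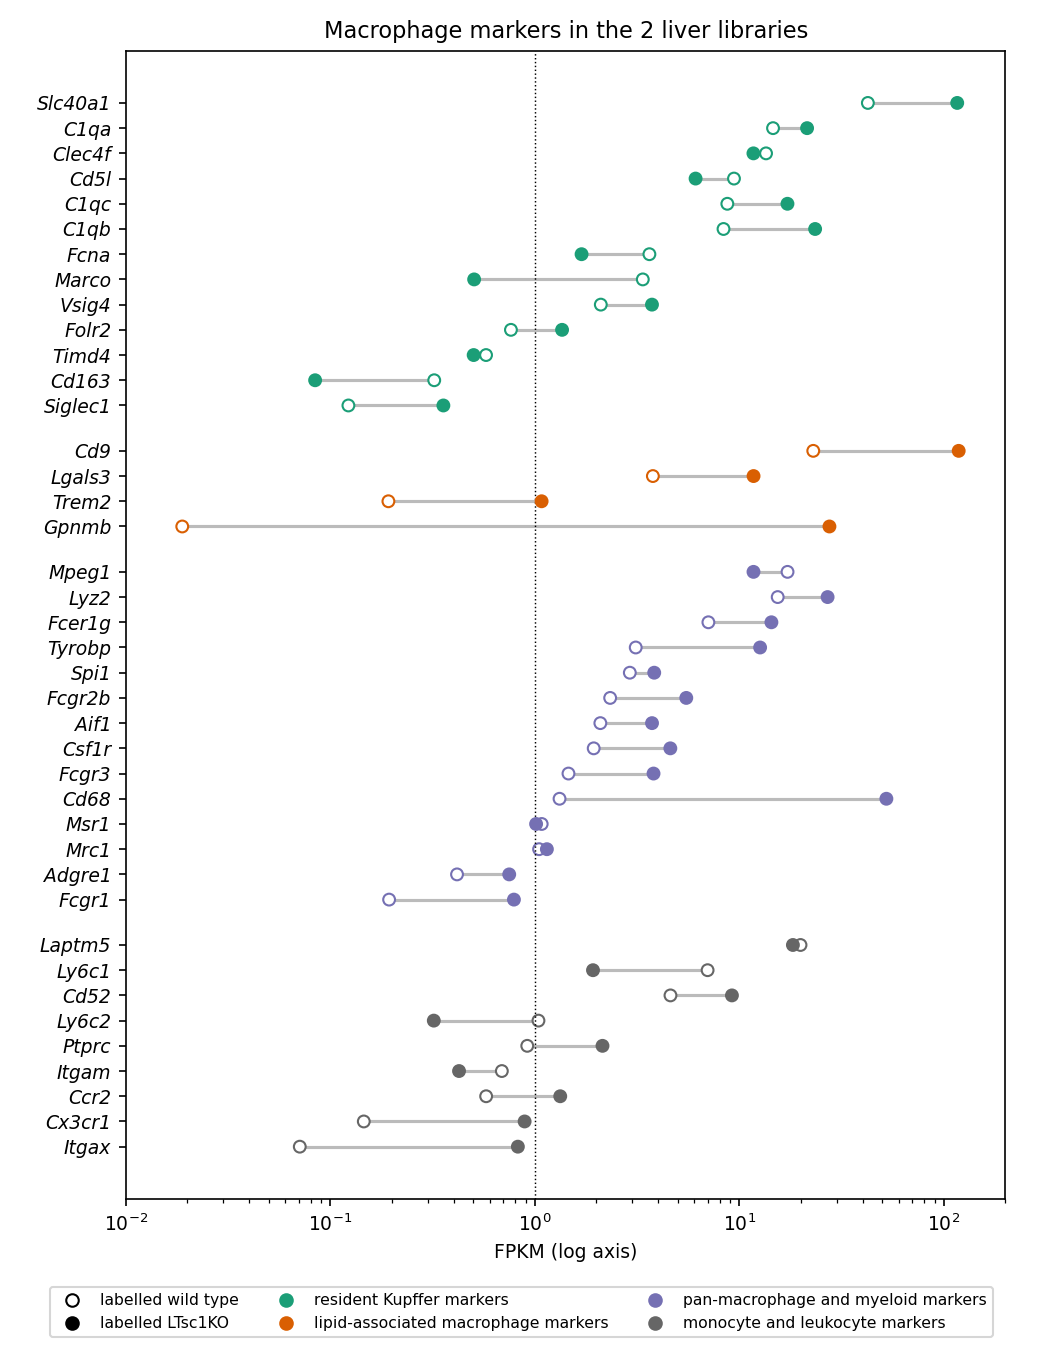
FPKM (log axis) of the 40 markers in the wild-type-labelled library (open points) and the LTsc1KO-labelled library (filled points), 1 library each, coloured by group and ordered by level in the wild-type-labelled library; the dotted line is an FPKM of 1. Gpnmb and Cd68 have the longest gaps between libraries, and Clec4f, Timd4, Msr1, Mrc1 and Laptm5 the points that lie closest together.

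The order of the markers by level shows which transcripts carry the list. In the wild-type-labelled library the iron exporter gene Slc40a1 stood first at 42.5 FPKM, followed by Cd9 at 23.0, Laptm5 at 19.9, Mpeg1 at 17.2 and Lyz2 at 15.4. In the LTsc1KO-labelled library the order began with Cd9 at 118, Slc40a1 at 116, Cd68 at 52.3, Gpnmb at 27.6 and Lyz2 at 27.0. Cd68 had moved from rank 24 to rank 3 and Gpnmb from rank 40, the last, to rank 4, while Lyz2 held rank 5 in both. Marco went from rank 16 to rank 35 and Ly6c1 from 12 to 24. The FPKM of all 40 markers summed to 227 and 541, a quotient of 2.38.

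Markers of resident Kupffer cells were divided. Of the 13, 7 had the counting interval above equal FPKM and 5 below it, and against the median gene 3 lay above and 6 below. Expressed were 10, with 2 at least 2-fold higher and 1 at least 2-fold lower and a median log2 ratio of 0.47. After median centring the median was -0.15, with none of 9 higher and 3 lower. Among all expressed genes 35.6% were at least 2-fold higher and 6.15% at least 2-fold lower (median 0.70). After centring these shares were 15.6% and 12.7% (median 0.071).

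Clec4f, a galactose-binding C-type lectin that in the mouse is restricted to Kupffer cells, was at an FPKM of 13.5 (580 reads) in the wild-type-labelled library and 11.7 (529 reads) in the LTsc1KO-labelled library. Its ratio was 0.868 (interval 0.770 to 0.978), so the 2 libraries differed little and the value lay below that of the median gene. Timd4, the phosphatidylserine receptor by which resident macrophages take up dying cells, was low in both, at 0.577 (35 reads) and 0.502 (32 reads). Its ratio of 0.870 had an interval of 0.521 to 1.45, which holds equality. Cd5l, a secreted scavenger protein of tissue macrophages, was at 9.41 and 6.10 (535 and 365 reads), a ratio of 0.649 (0.567 to 0.743). In all 3 the interval lay below the median gene.

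Lower still in the LTsc1KO-labelled library were 2 scavenger receptors and a soluble lectin. Marco, a class A scavenger receptor for bacteria and particles, had 3.37 FPKM (108 reads) in the wild-type-labelled library and 0.505 (17 reads) in the other, 6.68-fold lower (interval 3.98 to 11.9). Cd163, the receptor for haemoglobin bound to haptoglobin, had 0.322 (40 reads) and 0.0842 (11 reads), 3.82-fold lower (1.93 to 8.26), at levels below the expression limit. Fcna, ficolin A, a lectin that starts complement on microbial sugars, had 3.63 and 1.69 (98 and 48 reads), 2.15-fold lower (1.5 to 3.10). Marco alone of the 3 passed 2-fold on the scale of log2(FPKM + 1), at -1.54, and Fcna stood at -0.78, or -1.19 after median centring. All 3 intervals lay below the median gene.

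Other resident markers were higher. Slc40a1, ferroportin, exports the iron that macrophages recover from erythrocytes and is also expressed by hepatocytes. It was at 42.5 FPKM (1792 reads) and 116 (5152 reads), a ratio of 2.73 (2.59 to 2.89). Vsig4, the complement receptor CRIg that captures C3-coated bacteria, was at 2.10 and 3.74 (54 and 101 reads), a ratio of 1.78 (1.27 to 2.52) that holds the median gene. Folr2, folate receptor beta, was at 0.763 and 1.36, with nearly the same ratio of 1.78 (1.05 to 3.09), but 55.8% of its 36-base words also occur in transcripts of another annotated gene, Gm10602. Siglec1, the sialic acid receptor of resident macrophages, was below the expression limit in both, at 0.122 and 0.357 (16 and 49 reads), a ratio of 2.91 (1.63 to 5.49). Intervals of Folr2 and Siglec1 also held the median gene, while that of Slc40a1 lay above it.

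The genes for the 3 chains of C1q, the recognition unit of the classical complement pathway, are made together by macrophages and lie side by side on chromosome 4 (C1qa from 136895917 to 136898803 on GRCm38, GENCODE M21). C1qa was at 14.6 FPKM (424 reads) and 21.4 (654 reads), a ratio of 1.47 (1.30 to 1.66). C1qb was at 8.36 (254 reads) and 23.5 (749 reads), a ratio of 2.81 (2.43 to 3.25). C1qc was at 8.73 (262 reads) and 17.2 (542 reads), a ratio of 1.97 (1.69 to 2.29). The interval of C1qa held the median gene, and those of C1qb and C1qc lay above it. All 3 were higher in the LTsc1KO-labelled library, but not by the same factor, although C1q is built from equal numbers of the chains. C1qb per C1qa was 0.573 in the wild-type-labelled library and 1.09 in the other, a change of 1.91-fold (interval 1.58 to 2.32) that no scaling of the libraries can alter. None of the 36-base words of the 3 genes occurs in another gene's transcripts.

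**Figure D2:**
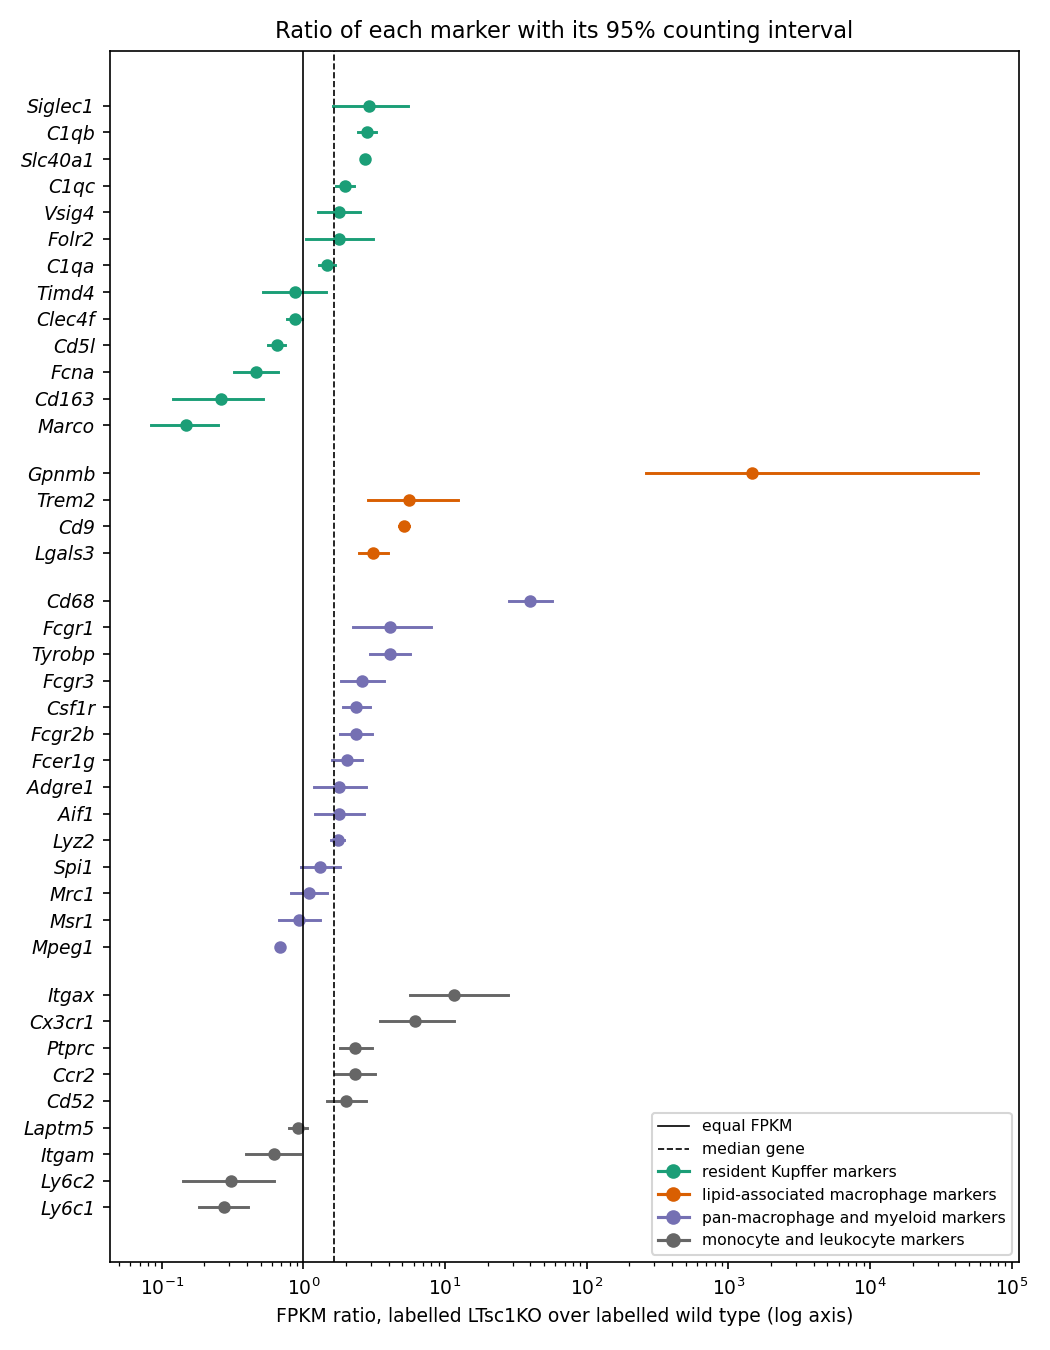
Ratio of FPKM in the LTsc1KO-labelled library to that in the wild-type-labelled library (log axis) for each of the 40 markers, with bars for the 95% exact counting interval; the solid line marks equal FPKM and the dashed line the median gene at 1.64. The 4 lipid-associated markers all lie to the right of the dashed line, while the resident Kupffer markers lie on both sides, from Marco at 0.150 to Siglec1 at 2.91.

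Markers of lipid-associated macrophages were all higher in the LTsc1KO-labelled library. In all 4 the counting interval lay above the median gene, and 3 of the 4 were at least 2-fold higher on the log2 scale (median 1.86, or 1.61 over the 3 expressed after median centring). Among all expressed genes 35.6% were at least 2-fold higher. After median centring it was 2 of the 3, beside 15.6% of all expressed genes. Gpnmb and Trem2 passed the expression limit through the LTsc1KO-labelled library alone, so their direction in these counts and medians was fixed by the filter. Gpnmb, a lysosomal and surface glycoprotein whose gene is a known target of the MITF and TFE family, had 1 read in the wild-type-labelled library (FPKM 0.0189) and 1536 reads in the LTsc1KO-labelled library (27.6). The ratio was 1461 with an interval of 262 to 57747, wide because of that single read, and the log2 ratio was 4.81. Cd9, a tetraspanin found on lipid-associated macrophages and also on many epithelial cells, was at 23.0 (624 reads) and 118 (3373 reads), a ratio of 5.14 (4.72 to 5.61). It shares 17.4% of its 36-base words with other genes. Lgals3, galectin-3, which macrophages and biliary cells make, was at 3.77 and 11.7 (94 and 307 reads), a ratio of 3.11 (2.46 to 3.96). Trem2, the lipid receptor that gives these macrophages their name in many studies, was low in both, at 0.192 (10 reads) and 1.08 (59 reads), a ratio of 5.61 (2.85 to 12.3). In level the 4 were far apart, with Cd9 the most abundant marker of all 40 in the LTsc1KO-labelled library and Trem2 at rank 29.

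Another 20 genes reported in lipid-associated macrophages were looked up, most of which hepatocytes, biliary cells or other cells also express. Of the 17 expressed, 12 were at least 2-fold higher and 1 at least 2-fold lower (median 1.56), or 9 and 2 after median centring (median 1.10), beside 35.6% and 6.15% of all expressed genes, or 15.6% and 12.7% after centring. Cd63, a tetraspanin of lysosomes, was at 11.7 and 450 FPKM, a ratio of 38.3 (34.2 to 43.1), while the lysosomal proteases cathepsin D and B had ratios of 3.93 for Ctsd and 2.53 for Ctsb. Spp1, osteopontin, was at 36.9 and 575, and Cstb, the cathepsin inhibitor cystatin B, at 58.1 and 615. Going the other way, Atp6v0d2, a subunit of the lysosomal proton pump, was at 15.7 and 5.35. Spp1 is also a marker of cholangiocytes, whose list of 8 had 5 of 7 expressed genes past 2-fold upward and none downward (median 1.38), or 2 of 6 after median centring. Their FPKM summed to 48.4 and 638, most of it Spp1, without which the other 7 genes summed to 11.5 and 62.9 (a choice made after the values were seen), with Cldn7, a tight junction gene, at 0.304 and 33.2 and the biliary transcription factor gene Sox9 at 3.64 and 11.2. Cldn7, Epcam, Krt19 and Krt7 reached the expression limit in the LTsc1KO-labelled library alone, which fixed their direction. The same holds for Mmp12, 1 of the 12 lipid-associated genes at least 2-fold higher. No cholangiocyte marker was at 0 in both libraries. The part of cholangiocytes in the values of Cd9, Lgals3 and Spp1 was not tested.

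Markers shared by macrophages and other myeloid cells were mostly higher in the LTsc1KO-labelled library, some of them no more than the median gene. Of 14 markers 12 had a ratio above 1, and the counting interval lay above the median gene for 6, below it for 3 and held it for 5. Expressed were 12, with 2 past 2-fold upward and none downward (median 0.85), or 2 higher and 1 lower after median centring (median 0.18). The shares of all expressed genes were 35.6% upward and 6.15% downward (median 0.70), or 15.6% and 12.7% after centring (median 0.071).

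Cd68, macrosialin, a glycoprotein of the macrophage lysosome that can be found in lysosomes of other cells too, stood apart within this group. It was at 1.32 FPKM (35 reads) in the wild-type-labelled library and 52.3 (1459 reads) in the LTsc1KO-labelled library, a ratio of 39.7 (28.4 to 57.2) and a log2 ratio of 4.52. The gene lies on chromosome 11, from 69664213 to 69666153 on the minus strand, and none of its 36-base words occurs in another gene's transcripts. Adgre1, which encodes the pan-macrophage antigen F4/80, was at 0.416 (37 reads) and 0.749 (70 reads), a ratio of 1.8 (1.19 to 2.76) that holds the median gene. Cd68 per Adgre1 was 3.17 in the wild-type-labelled library and 69.9 in the other, a change of 22.0-fold (12.6 to 38.3), so these 2 customary macrophage markers did not move together.

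Receptors and adaptors of myeloid signalling were higher too. Tyrobp, the adaptor DAP12 through which TREM2 signals, was at 3.11 (49 reads) and 12.6 (209 reads), a ratio of 4.06 (2.96 to 5.66). Fcer1g, the related adaptor of Fc receptors, was at 7.05 and 14.3 (102 and 218 reads), a ratio of 2.03 (1.6 to 2.6), and Fcer1g per Tyrobp changed 0.501-fold (0.332 to 0.752). Trem2 per Tyrobp changed 1.38-fold, with an interval of 0.641 to 3.25 that holds no change. Csf1r, the growth factor receptor on which macrophages depend, was at 1.94 and 4.59 (116 and 289 reads), a ratio of 2.37 (1.90 to 2.97). It shares 14.8% of its 36-base words with other genes, most of them with Hmgxb3. The interval of Fcer1g held the median gene, and those of Tyrobp and Csf1r lay above it.

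The Fc gamma receptors, which bind antibody-coated particles, were all higher. Fcgr1, the high-affinity receptor, was at 0.194 and 0.790 (14 and 60 reads), a ratio of 4.08 (2.25 to 7.90). Fcgr3, an activating receptor, was at 1.46 and 3.80 (46 and 126 reads), a ratio of 2.61 (1.85 to 3.74). Fcgr2b, the inhibitory receptor, which sinusoidal endothelium also expresses, was at 2.33 and 5.5 (86 and 213 reads), a ratio of 2.36 (1.83 to 3.06). Intervals of Fcgr1, Fcgr3 and Fcgr2b all lay above the median gene. Fcgr3 shares 12.0% of its 36-base words with Fcgr2b, and Fcgr3 per Fcgr2b changed 1.11-fold (0.713 to 1.73).

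The remaining shared markers differed less. Lyz2, lysozyme of macrophages and neutrophils, was at 15.4 and 27.0 (544 and 1003 reads), a ratio of 1.75 (1.58 to 1.95), and shares 27.3% of its 36-base words with the intestinal copy Lyz1. Aif1, the actin-binding protein IBA1, was at 2.09 and 3.74 (42 and 79 reads), a ratio of 1.79 (1.22 to 2.67). Intervals of Lyz2 and Aif1 both held the median gene. Spi1, which encodes PU.1, was at 2.91 and 3.83 (73 and 101 reads), and its ratio of 1.32 (0.964 to 1.8) held both equality and the median gene. Mrc1, the mannose receptor CD206 of macrophages and sinusoidal endothelium, was at 1.05 and 1.14, and Msr1, scavenger receptor A, at 1.08 and 1.01, each with an interval that holds equality and lies below the median gene. Mpeg1, which encodes the pore-forming perforin-2 of macrophages, was the only shared marker with its interval below equality, at 17.2 (2081 reads) and 11.7 (1491 reads), a ratio of 0.682 (0.637 to 0.729).

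**Figure D3:**
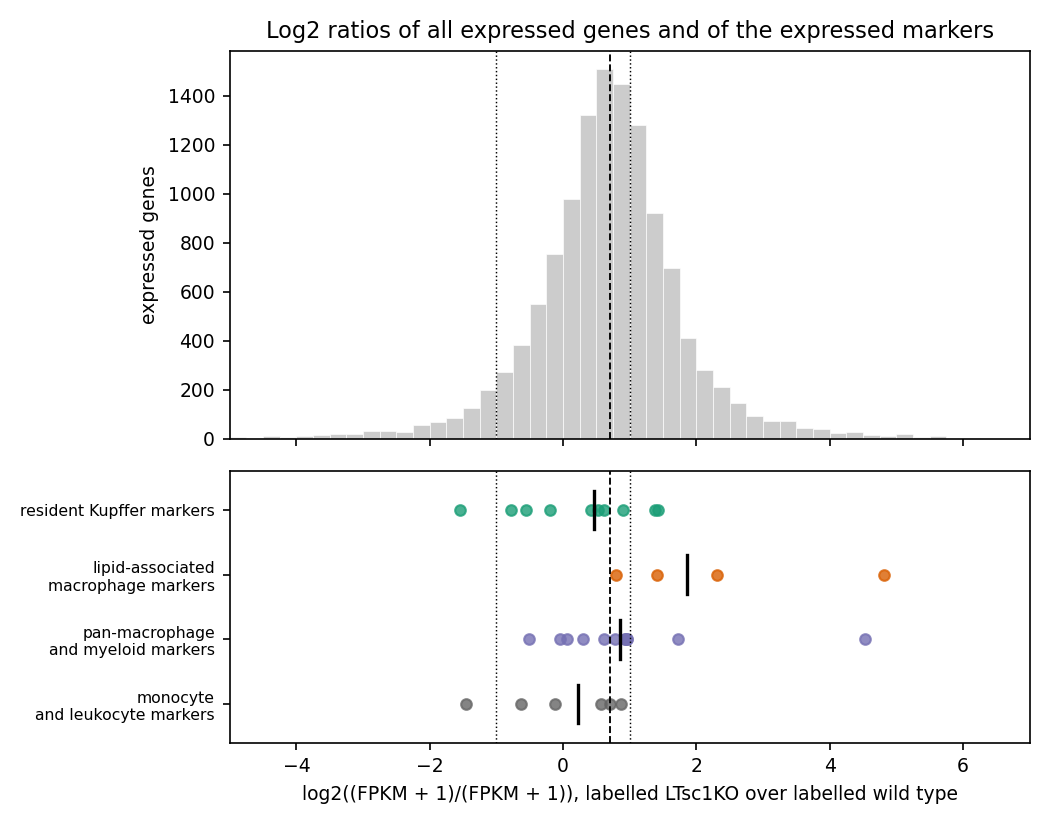
Upper panel, number of expressed genes by log2((FPKM + 1)/(FPKM + 1)), LTsc1KO-labelled library over wild-type-labelled library, in bins of 0.25 (37 of 12395 genes lie outside -5 to 7 and are not drawn); lower panel, the 32 expressed markers by group, with a bar at each group's median. The dashed line is the median of all expressed genes, 0.70, and the dotted lines are the 2-fold limits; most markers lie in the body of the distribution, with Gpnmb at 4.81 and Cd68 at 4.52 in its upper tail.

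Markers of monocytes and of leukocytes in general went in both directions. Among 9 markers the counting interval lay above equal FPKM for 5 and below it for 3. Against the median gene it lay above for 4, below for 4 and held it for 1. Expressed were 6, none at least 2-fold higher and 1 at least 2-fold lower, with a median log2 ratio of 0.22 that turned to -0.77 over the 5 expressed after median centring. Beside this, 35.6% of all expressed genes were higher and 6.15% lower (median 0.70), or 15.6% and 12.7% after centring (median 0.071).

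Chemokine receptors were higher in the LTsc1KO-labelled library. Cx3cr1, the fractalkine receptor of patrolling monocytes and many tissue macrophages, was at 0.146 and 0.891 (14 and 90 reads), a ratio of 6.12 (3.46 to 11.6). Ccr2, which brings inflammatory monocytes into tissue, was at 0.578 and 1.33 (57 and 138 reads), a ratio of 2.30 (1.68 to 3.19). Itgax, the integrin CD11c of dendritic cells and of some macrophages, was at 0.0708 (8 reads) and 0.825 (98 reads), a ratio of 11.7 (5.69 to 27.7). All 3 stayed low, with the 1.33 of Ccr2 the highest of these values.

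By contrast the Ly6c genes were lower. Ly6c1, which endothelial cells also express, was at 6.99 (121 reads) and 1.92 (35 reads), 3.63-fold lower (2.48 to 5.46). Ly6c2, the surface antigen of classical monocytes, was at 1.04 (34 reads) and 0.320 (11 reads), 3.25-fold lower (1.61 to 7.11). The 2 genes are close copies: 28.9% of the 36-base words of Ly6c1 also occur in Ly6c2, so reads may be exchanged, and Ly6c1 per Ly6c2 changed 0.894-fold (0.392 to 2.16). Itgam, the integrin CD11b of monocytes, neutrophils and some macrophages, was at 0.689 and 0.426 (57 and 37 reads), a ratio of 0.617 (0.397 to 0.95), and 67.0% of its 36-base words are shared with the annotated gene Gm49368. Itgax per Itgam was 0.103 in the wild-type-labelled library and 1.94 in the other, a change of 18.9-fold (7.86 to 49.4).

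The list held 3 genes shared by leukocytes of several kinds. Ptprc, CD45, was at 0.918 and 2.14 (84 and 206 reads), a ratio of 2.33 (1.8 to 3.04). Cd52, a small surface glycoprotein of lymphocytes and myeloid cells, was at 4.60 and 9.19 (60 and 126 reads), a ratio of 2.0 (1.46 to 2.76). Laptm5, a lysosomal protein of leukocytes, was at 19.9 and 18.3 (400 and 386 reads), a ratio of 0.918 (0.796 to 1.06). Ptprc lay above the median gene, Cd52 held it and Laptm5 lay below it, so the 3 did not move by a common factor.

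**Figure D4:**
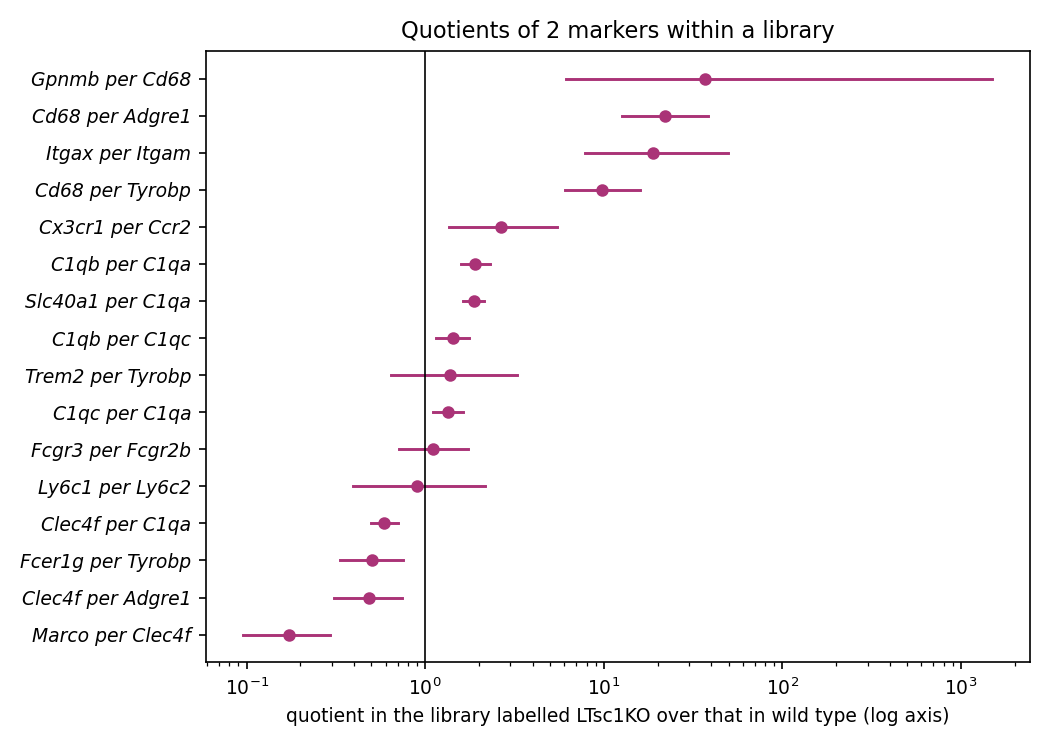
Change in the quotient of FPKM of 2 markers between the LTsc1KO-labelled library and the wild-type-labelled library (log axis), for 16 pairs chosen after the values were seen, with bars for the 95% exact conditional interval on reads; the line marks no change. Such quotients do not depend on how the libraries are scaled; Gpnmb per Cd68 changed 36.8-fold and Marco per Clec4f 0.173-fold.

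Quotients of 2 markers within a library, 16 in all, show how far the markers departed from one another whatever the scaling. Clec4f per C1qa was 0.924 in the wild-type-labelled library and 0.547 in the other, a change of 0.591-fold (0.497 to 0.703). Clec4f per Adgre1 changed 0.482-fold (0.309 to 0.742) and Marco per Clec4f 0.173-fold (0.0958 to 0.294). Slc40a1 per C1qa changed 1.86-fold (1.63 to 2.13), Cd68 per Tyrobp 9.77-fold (6.03 to 15.9) and Cx3cr1 per Ccr2 2.66-fold (1.36 to 5.46). Clec4f was thus lower against C1qa and Adgre1, Marco was lower again against Clec4f, and Slc40a1 was higher against C1qa. C1qc per C1qa changed 1.34-fold (1.10 to 1.63) and C1qb per C1qc 1.43-fold (1.15 to 1.76). For Gpnmb per Cd68 the interval ran from 6.17 to 1497.

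A further 20 genes known from Kupffer cells, several of them also expressed by hepatocytes or endothelium, went in both directions. Among 11 expressed, 3 stood past 2-fold upward and 2 downward (median 0.76), or 2 and 3 after median centring (median 0.15). For all expressed genes the shares were 35.6% and 6.15% (median 0.70), or 15.6% and 12.7% after median centring (median 0.071), and each list that follows is to be read beside these. Hmox1, haem oxygenase 1, which breaks down haem from engulfed erythrocytes and is also induced by NRF2 in many cells, was at 9.0 and 143, a ratio of 15.8 (13.9 to 18.1). C6, a late complement component, was at 8.62 and 44.0, and the receptor gene Paqr9 was 2.26-fold lower, at 35.2 and 15.6. Vcam1, past 2-fold upward as well, reached the expression limit in the LTsc1KO-labelled library alone, which fixed its direction. Transcription factors of macrophages were looked up as well: of 16 expressed, 1 was at least 2-fold higher and 5 lower (median -0.13), or none and 6 after median centring (median -0.65). Id3, a factor needed for Kupffer cell identity in the mouse and expressed in other liver cells, was at 68.0 and 14.6, 4.65-fold lower. Mef2c, at 4.69 and 0.113, and Runx1, at 4.05 and 0.313, were lower too, and Mef2c is also a muscle gene in a comparison where muscle transcripts differed. Both reached the expression limit in the wild-type-labelled library alone, which fixed their direction. Pparg, the lipid-sensing receptor, was at 3.81 and 12.8.

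Ligands that attract or sustain macrophages were higher in 6 of 10 expressed cases by at least 2-fold and lower in none (median 1.54), or 5 and 2 after median centring (median 1.01), beside 35.6% of all expressed genes higher, or 15.6% after centring. Cx3cl1, the ligand of CX3CR1, was at 0.360 (13 reads) and 14.9 (565 reads), a ratio of 41.3 (24.0 to 78.1). Ccl2, the ligand of CCR2, was at 0.30 and 9.24 (8 and 259 reads), a ratio of 30.8 (15.4 to 72.1). Cx3cl1, Ccl2 and Ccl7 passed the expression limit through the LTsc1KO-labelled library alone, so their direction in the counts was fixed by the filter. Il34, a ligand of CSF1R, was at 1.68 and 10.7 (47 and 314 reads), a ratio of 6.36 (4.67 to 8.83), while Csf1, the other ligand of that receptor, was at 8.04 and 6.16 (446 and 359 reads), a ratio of 0.766 (0.664 to 0.882). Gdf2, the ligand BMP9, was at 2.33 and 0.696, 3.34-fold lower (2.50 to 4.53) but -0.97 on the scale of log2(FPKM + 1), short of the limit, and Gas6, a ligand of the receptor AXL, was at 137 and 99.5. Cx3cl1 and Ccl2 had higher ratios than their receptors, 6.12 for Cx3cr1 and 2.30 for Ccr2. No interval of these ligands overlapped that of its receptor, which speaks to counting error only.

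Signalling genes downstream of TYROBP, FCER1G and CSF1R were at least 2-fold higher in 8 of 14 expressed cases and lower in none (median 1.06), or 4 of 12 and none after median centring (median 0.59). Blnk, an adaptor of immune receptors, was at 0.80 and 18.4, a ratio of 23.1 (17.9 to 30.2), Pik3ap1, an adaptor for PI3 kinase, at 3.77 and 29.1, and Sirpa, the inhibitory receptor of myeloid cells, at 6.40 and 37.8. Of the 8 genes past 2-fold, Blnk, Plcg2, Clec7a, Fcgr4 and Fgr reached the expression limit in the LTsc1KO-labelled library alone, which fixed their direction. Of 14 inflammatory macrophage genes only 5 were expressed, 4 past 2-fold upward and none downward (median 1.20), or 2 and none after median centring (median 0.79): Tlr2, which senses bacterial lipoproteins, was at 1.37 and 12.2, the chemokine gene Cxcl10 at 1.06 and 8.58 and the endotoxin co-receptor gene Cd14 at 38.7 and 90.1. Among the inflammatory genes past 2-fold, Cd40 reached the expression limit in the LTsc1KO-labelled library alone, which fixed its direction. Genes of alternative activation had 4 of 11 expressed, 1 at least 2-fold higher and 1 lower (median -0.30), or none and 2 of 3 after median centring (median -1.26). Arg1, which in liver is above all the urea cycle enzyme of hepatocytes, was at 1045 and 239, Il4ra at 3.78 and 13.1 and Chil3 at 5.34 and 2.71.

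**Figure D5:**
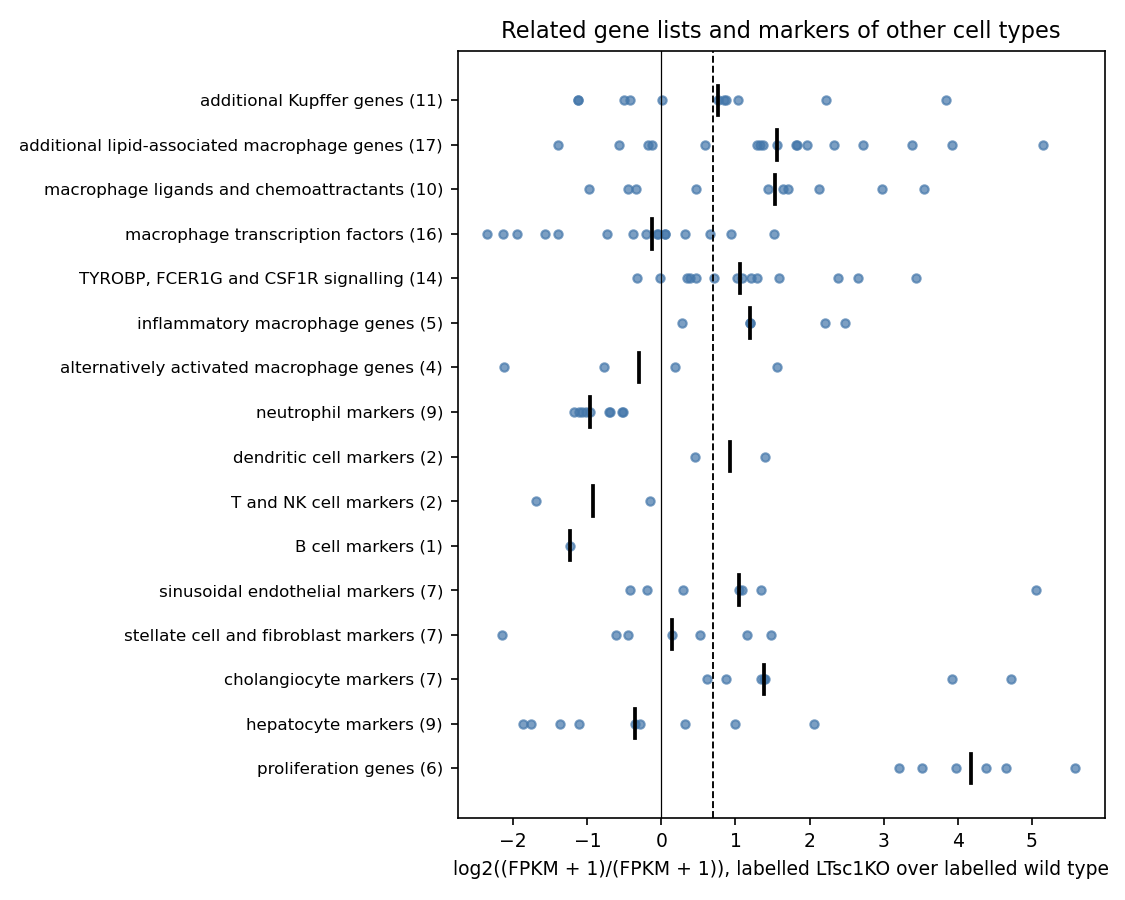
Log2((FPKM + 1)/(FPKM + 1)), LTsc1KO-labelled library over wild-type-labelled library, of the expressed genes (points) of 16 lists of related genes and of markers of other cell types, with a bar at each median and the number of expressed genes in brackets; the dashed line is the median of all expressed genes, 0.70, and the solid line marks equality. All 9 expressed neutrophil markers lie left of equality and all 6 proliferation genes lie right of 3. For Ly6g, Mki67, Cdk1, Ccnb1 and Top2a the expression filter fixed the direction.

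Neighbouring cell types of the sinusoid and portal tract were checked with the macrophage markers, since some of the latter are shared with them. Neutrophil markers were lower in all 9 expressed cases, 4 by at least 2-fold (median -0.97), or 7 after median centring (median -1.37). Their 12 genes summed to 151 and 71.7 FPKM, with S100a9 at 53.5 and 24.8, Mpo at 5.65 and 1.94 and Camp at 8.40 and 3.35. Lyz2 and Itgam are shared with these cells. Among the neutrophil markers, Ly6g reached the expression limit in the wild-type-labelled library alone, which fixed its direction. Sinusoidal endothelial markers were at least 2-fold higher in 4 of 7 expressed cases and lower in none (median 1.04), or 1 of 5 after median centring (median 0.36). Their 12 genes summed to 28.3 and 90.4 FPKM, with Flt4 at 0.255 and 40.7, Stab1 at 3.48 and 10.4 and Lyve1 at 0.192 and 1.54. Most of the difference in that sum was Flt4, without which the other 11 summed to 28.0 and 49.7 (a choice made after the values were seen). Flt4 and Lyve1 reached the expression limit in the LTsc1KO-labelled library alone, which fixed their direction. The general endothelial genes Pecam1, at 1.98 and 1.23, and Eng, at 5.49 and 4.65, were lower. Mrc1 and Fcgr2b, which these cells also express, had ratios of 1.09 and 2.36. Neither list had a gene at 0 in both libraries, and the part of either cell type in the macrophage markers was not tested. Proliferation genes were at least 2-fold higher in all 6 cases on either scaling (medians 4.17 and 3.50), with Mcm6 at 1.02 and 96.0, Cdk1 at 0.532 and 37.5 and Top2a at 0.401 and 28.1. The direction of Mki67, Cdk1, Ccnb1 and Top2a was fixed by the filter in the same way. Hepatocyte markers, of which 9 of 10 were matched, had 1 at least 2-fold higher and 4 lower (median -0.35), or 1 and 5 after median centring (median -1.07), with Alb at 14351 and 5534, Fgb at 8126 and 2227, Asgr1 at 861 and 254 and Apob at 212 and 885. Stellate cell and fibroblast markers had 2 of 7 expressed at least 2-fold higher and 1 lower (median 0.15), or none and 1 of 6 after median centring (median -0.52), with Dcn at 23.7 and 4.55, Col1a1 at 0.563 and 3.35 and Col3a1 at 1.62 and 4.82. Col1a1 passed the expression limit through the LTsc1KO-labelled library alone.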

How the data were processed

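RNA was sequenced from 2 livers, 1 library per genotype. The authors deposited FPKM, with each library in a table of its own, per the file headers. CASAVA 1.7, Bowtie 0.12.2 and mm8 appear in the submitters' processing notes; counting tool, annotation and strand are not stated there or elsewhere in the sources used here. Of 35275 IDs 34490 (97.8%) matched a GENCODE M21 symbol, as did 40 of 40 markers; gene coordinates are GRCm38.

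A gene's FPKM is a whole multiple of what 1 read is worth, and library totals were read from genes with 1 read. All 40 markers came out whole in both libraries within the rounding of the printed decimals, 18 at the rounded mean length of their annotated transcripts and 22 at another length within 3-fold of it. GENCODE M21 is later than mm8, a difference that was not resolved. Marker reads ran from 1 to 5152, with 9 markers under 20 reads in a library; 3 reads in a gene of 2000 bases are an FPKM of 0.0537 and 0.0511. No count model was used.

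The pseudocount was 1 and the 2-fold limit a log2 ratio of 1. Close copies were sought as 36-base words, either strand, shared with other genes' GENCODE M21 transcripts; no source used here states the read length. Promoter windows came from RefSeq on GRCm38.p6. The members and all lists were chosen with earlier results of these data known; the quotients, motifs, printed windows and 36-base words were chosen after the values were seen. From each further list the text names the 3 expressed genes farthest from a log2 ratio of 0, the farthest in the other direction if at least 2-fold, and cell type markers at 0 in both libraries. Outside that rule, Csf1, Gdf2, Gas6, Ctsd, Ctsb, Pecam1, Eng and Cd3e were named after their values were seen. The same holds for genes named only because the expression filter fixed their direction. Alternatives were pseudocounts of 0.1 and 5, equal totals, equal upper quartiles, median centring (the median ratio of genes at 1 or more in both libraries set to 0), no filter, a minimum FPKM of 5, a 4-fold limit and leaving out close copies. The scripts were checked on simulated data. Computation used scipy 1.17.1, pandas 2.3.3 and numpy 2.4.6 in Python 3.11.15, with matplotlib 3.10.9 for plots.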

Additional observations from a re-analysis of the deposited data

How the results depend on the processing

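Nothing here has a replicate, so precision is set by reads and the spread between animals is unknown. No paired analysis was possible because each genotype has 1 library. The count of markers at least 2-fold higher, 7 as reported, was 14 with a pseudocount of 0.1, 13 with equal totals, 4 after median centring, 4 with upper quartiles made equal and 3 at a 4-fold limit. In that order these were 43.8%, 39.4%, 13.8%, 13.8% and 9.38% of the expressed markers. The shares of all expressed genes were 42.9%, 42.4%, 15.6%, 15.8% and 8.86%, so the counts moved with those of all genes. The count at least 2-fold lower, 2 as reported, was 4 with a pseudocount of 0.1, 0 with a pseudocount of 5, 1 at a minimum FPKM of 5, 5 after median centring, 5 with upper quartiles and 0 at a 4-fold limit. It was 1 without the 5 markers taken as close copies (Ly6c1, Ly6c2, Fcgr1, Fcgr3 and Fcgr2b), although Fcgr1 shares no 36-base word with another gene. It was also 1 without the 8 markers that share over 10 percent of their 36-base words (a choice made after seeing the data). After median centring and with upper quartiles, the median log2 ratio of all markers was 0.089 and 0.10, that of resident Kupffer markers -0.15 and -0.14, that of shared myeloid markers 0.18 and 0.19, and that of monocyte and leukocyte markers -0.77 and -0.77. The last, 0.22 as reported, was also -0.12 at a minimum of 5, 0.042 with a pseudocount of 5, 0.43 with a pseudocount of 0.1, 0.56 with no filter, 0.67 with equal totals, and 0.64 without close copies by either definition, so its sign and size rest on these choices. The lipid-associated median stayed between 1.41 and 2.31 under every alternative. Of 87 named genes no log2 ratio past 2-fold changed sign under any alternative.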

Other observations

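Lymphocyte and dendritic cell genes were scarce in both libraries. Of 14 T and NK cell markers 2 were expressed, Zap70 at an FPKM of 20.3 and 5.63 in the wild-type- and LTsc1KO-labelled libraries and Nkg7 at 1.02 and 0.815, giving a median log2 ratio of -0.92, or -1.35 after median centring. The T cell receptor component Cd3e was at 0.10 and 0.356, so the level of the kinase gene Zap70 was far above that of its usual partners, and Ncr1, a marker of NK cells, had no reads in either library. Among 8 B cell markers Jchain, the joining chain of polymeric antibodies, was the one expressed, at 14.2 and 5.46, 2.60-fold lower. Of 9 dendritic cell markers 2 were expressed. Bst2, which interferon induces in many cells, was at 188 and 495, and Zbtb46, a factor of classical dendritic cells, at 0.696 and 1.31. The dendritic cell markers other than these 2 all stood below an FPKM of 1.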
